A study of Mus musculus with 8 samples.

Results

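The genes described here are 8 targets of NRF2 (Hmox1, Nqo1, Gclm, Gclc, Txnrd1, Srxn1, Slc7a11 and Gsta4) and the metallothionein genes Mt1 and Mt2. They were chosen by name, as the gene probes of the array that carry one of these 10 gene names. The rule found 16 of 41174 gene probes. After a filter for signal above background, 12 of them (9 genes) were kept, among 22642 kept probes of 14791 genes on the whole array. Slc7a11 was the gene without a kept probe. The rule uses names alone.

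RNA was taken from mouse embryonic fibroblasts (MEFs), primary cells grown out of embryos, of genotype Lats2-/- or Lats2+/+ (wild type). Lats2 encodes a kinase of the Hippo pathway. Both genotypes are of strain C57BL/6J, were kept in serum-containing DMEM and received no treatment, and the age of the embryos is not given in the sources used here. There were 3 litters, numbered 112, 116 and 121, with 1 extract of each genotype per litter and 6 extracts in all. Each extract carries a clone name of its own, so that 1 clone stands for a genotype in a litter. The extracts of a litter shared 2-colour Agilent arrays with swapped dyes, 2 arrays each for litters 112 and 116 and 4 for litter 121. Values below are the log2 ratio of Lats2-/- over wild type, where 1 unit is 2-fold and a negative value is lower in Lats2-/- cells, or the log2 signal of an extract, which is compared only within a probe.

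NRF2 (gene Nfe2l2) is a transcription factor that KEAP1 holds at a low level by ubiquitination. Oxidants and electrophiles block KEAP1, and NRF2 then binds antioxidant response elements together with small MAF proteins, while BACH1 competes for the same elements. Its targets make and recycle glutathione and thioredoxin, detoxify quinones and lipid aldehydes, and degrade heme. Metallothioneins are small cysteine-rich proteins that bind zinc and copper, and the transcription factor MTF1 induces them through metal response elements. In fibroblast culture both groups are known to respond to oxygen, medium and metals.

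Promoter sequences are shown first for the members whose start regions hold the core letters of the antioxidant or metal response element. RefSeq promoters (GRCm38.p6, from 250 bases before to 50 after a listed start) were at hand for 7 of the 10 members: Nqo1, Gclm, Txnrd1 with 3 starts, Srxn1, Slc7a11, Mt1 and Mt2. The antioxidant response element core TGACNNNGC, on either strand, was present in 3 of the 5 NRF2 target members of that table (Gclm, Txnrd1 and Srxn1) and, counted by promoter, in 3 of their 7 promoters against 12.4% of all 32851 promoters. The metal response element core, TGCACNC or TGCGCNC on either strand, was found 3 times in Mt1 and 4 times in Mt2, and at least once in 25.7% of all promoters and at least 3 times in 1.97%. The 2 forms of the metal core differ in 1 letter and so cannot match at the same place, and matches describe letters, not bound sites. Across the sets, the Gclm promoter also held the metal core 3 times, the Srxn1 promoter held it once, and the Mt2 promoter held the antioxidant core once. Capitals mark the metal core in Mt1 and Mt2 and the antioxidant core in the others, written 5′ to 3′ on the plus strand of the 5 regions, all of which belong to plus-strand genes.
Mt1 (chr8:94178839-94179138): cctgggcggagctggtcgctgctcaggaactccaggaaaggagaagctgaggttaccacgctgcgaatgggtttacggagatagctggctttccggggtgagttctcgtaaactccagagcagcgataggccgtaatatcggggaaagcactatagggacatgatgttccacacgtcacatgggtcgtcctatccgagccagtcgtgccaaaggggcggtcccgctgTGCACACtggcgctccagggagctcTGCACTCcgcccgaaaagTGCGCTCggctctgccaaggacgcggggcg
Mt2 (chr8:94172368-94172667): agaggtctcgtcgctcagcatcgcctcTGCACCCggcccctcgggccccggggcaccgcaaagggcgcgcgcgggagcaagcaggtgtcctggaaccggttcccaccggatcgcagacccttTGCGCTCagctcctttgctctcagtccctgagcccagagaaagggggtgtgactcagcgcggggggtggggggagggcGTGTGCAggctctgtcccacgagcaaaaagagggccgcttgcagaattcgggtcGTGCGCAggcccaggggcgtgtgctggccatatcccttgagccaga
Gclm (chr3:122245307-122245606): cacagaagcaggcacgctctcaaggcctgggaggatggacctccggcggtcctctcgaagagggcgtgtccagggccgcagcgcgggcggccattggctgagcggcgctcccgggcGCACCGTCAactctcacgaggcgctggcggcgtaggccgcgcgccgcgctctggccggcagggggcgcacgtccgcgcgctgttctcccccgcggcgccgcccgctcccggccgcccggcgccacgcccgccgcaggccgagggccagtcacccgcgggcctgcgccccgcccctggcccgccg
Txnrd1, second start (chr10:82858956-82859255): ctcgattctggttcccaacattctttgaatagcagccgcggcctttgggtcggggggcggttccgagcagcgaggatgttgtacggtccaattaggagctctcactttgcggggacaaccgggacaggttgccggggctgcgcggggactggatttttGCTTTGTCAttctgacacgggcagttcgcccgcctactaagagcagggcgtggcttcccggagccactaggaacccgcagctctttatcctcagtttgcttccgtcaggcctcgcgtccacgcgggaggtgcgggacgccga
Srxn1 (chr2:152105274-152105573): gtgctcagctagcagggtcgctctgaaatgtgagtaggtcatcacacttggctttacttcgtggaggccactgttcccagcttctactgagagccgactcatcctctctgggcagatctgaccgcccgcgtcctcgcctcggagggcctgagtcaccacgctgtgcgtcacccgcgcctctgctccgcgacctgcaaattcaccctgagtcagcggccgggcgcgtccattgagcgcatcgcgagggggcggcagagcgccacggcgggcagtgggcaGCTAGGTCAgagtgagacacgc

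On each array 53.7% to 60.6% of gene spots of the Lats2-/- extract were well above background, and 53.1% to 61.6% of those of the wild-type extract. The fibroblast label was met by its markers, of which 8 of 9 (Col1a1, Col1a2, Col3a1, Thy1, Vim, Pdgfrb, Fn1 and Postn) were well above background in all 6 extracts. The same markers varied between the extracts of a litter, and not all in the same way. The log2 ratio of Col3a1 was 0.13, 3.70 and -3.42 in litters 112, 116 and 121, and that of Thy1 was -0.38, 2.05 and -3.66. Col1a1 and Col1a2 had the same signs as Thy1 in each litter. Postn was higher in Lats2-/- in each litter, with ratios of 0.80, 2.55 and 0.67, and so was Fn1, least in litter 121 (0.07). Vim had ratios of 0.08, -1.19 and -0.07, and Pdgfrb 0.87, 0.87 and -0.14. Pdgfra was well above background in 2 of 3 Lats2-/- and 3 of 3 wild-type extracts. Its ratios were 0.90, 0.13 and -4.96, and in litter 121 its signal was 6.30 in Lats2-/- and 11.26 in wild type. Of the markers of other cell types, 5 of 8 macrophage (Ptprc, Adgre1 and Tyrobp among them), 3 of 5 endothelial, 1 of 5 epithelial, 2 of 4 erythroid, 1 of 4 neural and 3 of 3 muscle genes were well above background in no extract. Signals of a list were summed on the linear scale, where the brightest genes weigh most, and the log2 of the sum is given. The Lats2-/- extract of litter 121 had the highest sum for the macrophage list, 11.95 against 9.38 to 9.66 in the other extracts, and for the neural list, 12.77 against 9.58 to 10.38. In litter 121 Lyz2 had a ratio of 3.40, while the other 7 macrophage markers lay between -0.16 and 0.11, and Nes had a ratio of 4.10, while the other 3 neural markers lay between -0.02 and 0.40. The same extract was also the highest for the endothelial list, 8.64 against 8.41 to 8.49, and the epithelial list, 8.75 against 8.44 to 8.70. Of the epithelial markers, Cdh1 was well above background in 1 of 3 Lats2-/- and 0 of 3 wild-type extracts. Krt8 and Krt18 went the other way, each with 0 of 3 Lats2-/- and 1 of 3 wild-type extracts, and Krt5 was so in all 6. Of the endothelial markers, Kdr was so in 1 of 3 Lats2-/- and 0 of 3 wild-type extracts, and Tek in 3 of 3 and 2 of 3. In bulk RNA, fewer cells of a type and less RNA per cell cannot be told apart. The targeted gene checks the labels in part: of 4 Lats2 probes, A_52_P425064 had ratios of -1.33, -1.05 and -0.56, while the remaining 3 spanned -0.70 to -0.18 over litters 112 and 116 and 0.80 to 1.17 in litter 121. Which part of the gene was deleted is not given in the sources used here, so that for litter 121 the check of the labels rests on 1 probe, and Lats2-/- and wild type stand throughout for the labels of the extracts. For this reason the mean of each kept member probe and each named list gene with its mean is also given without litter 121, which is at the same time the mean within slide 1, since litters 112 and 116 lay on 1 slide and litter 121 on the other.

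In MEFs of these 3 litters, no member passed the adjusted test between genotypes. The ratio differed between litters by more than the error between arrays of the same extracts for 12 of 12 member probes, which 85.4% of all kept probes also did. Nqo1, a quinone reductase, had the largest mean ratio among the main probes, -0.97 ± 0.88 (SD over litters, n = 3), and the main probe of Mt1 had the smallest, -0.05 ± 0.59. The first rank changed with each litter left out: the largest was Gsta4 (-1.44), Hmox1 (-0.78) and Mt2 (-1.52) without litters 112, 116 and 121. The smallest was then Hmox1 (-0.15), Mt1 (-0.03) and Hmox1 (0.27). At an adjusted p under 0.05 in limma, 0 of 12 member probes passed, as did 0% of all kept probes; the smallest adjusted p was 0.711 among members and 0.634 on the array. At an unadjusted p under 0.05, 2 of 12 passed (Gclm, lower, and the dimmer Mt1 probe, higher), against 6.84% of all kept probes. This count was 4 without litter 112, 0 without litter 116 and 4 without litter 121, against 5.06%, 5.53% and 6.43% of all kept probes. With a change of 2-fold or more and an unadjusted p under 0.05 in limma's moderated test, 0 of 12 passed, against 0.835% of all kept probes. By the same rule 3 passed without litter 112, against 1.55%, 0 without litter 116, against 1.15%, and 1 without litter 121, against 1.65%. The methods of the study ask for the same fold and threshold in a plain test, by which 0 members passed, against 0.314%.

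The mean ratio lay below 0 for 11 of 12 member probes and for 9 of 9 main probes (the kept probe with the highest signal of each gene), against 48.7% of all kept probes. The median mean ratio of the 12 was -0.48, and that of all kept probes was 0.01. Without litter 121 the count was 8 of 9 main probes, with Hmox1 above 0, and it was also 8 of 9 without litter 112 (Mt1 above 0) and without litter 116 (Gsta4 above 0). By litter, the median ratio of the 9 main probes ran -0.37, -1.14 and -0.15 for litters 112, 116 and 121, where 2, 1 and 3 of them were above 0. All genes had medians of 0.02, 0.01 and 0.01 in the same litters.

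Agreement in sign over the 3 litters was found for 4 of 12 member probes (Nqo1, Gclm, Txnrd1 and the dimmer Mt1 probe), against 29.7% of all kept probes. A ratio of 2-fold or more in at least 1 litter was found for 6 of 12 (Hmox1, Nqo1, Txnrd1, the main Srxn1 probe, Gsta4 and Mt2), against 13.3%. The median SD over litters was 0.64 for the member probes and 0.25 for all kept probes. The 12 probes counted above as differing between litters passed an adjusted p under 0.05 in limma's F-test, fitted over the 8 arrays with a dye term. That test sets litters against the error between arrays of the same extracts, which is technical, and the litter and, for litter 121, the slide cannot be told apart. The arrays of a litter stayed within 0.33 of each other for every kept member probe, and the plot of single arrays shows the main ones.

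**Figure D1:**
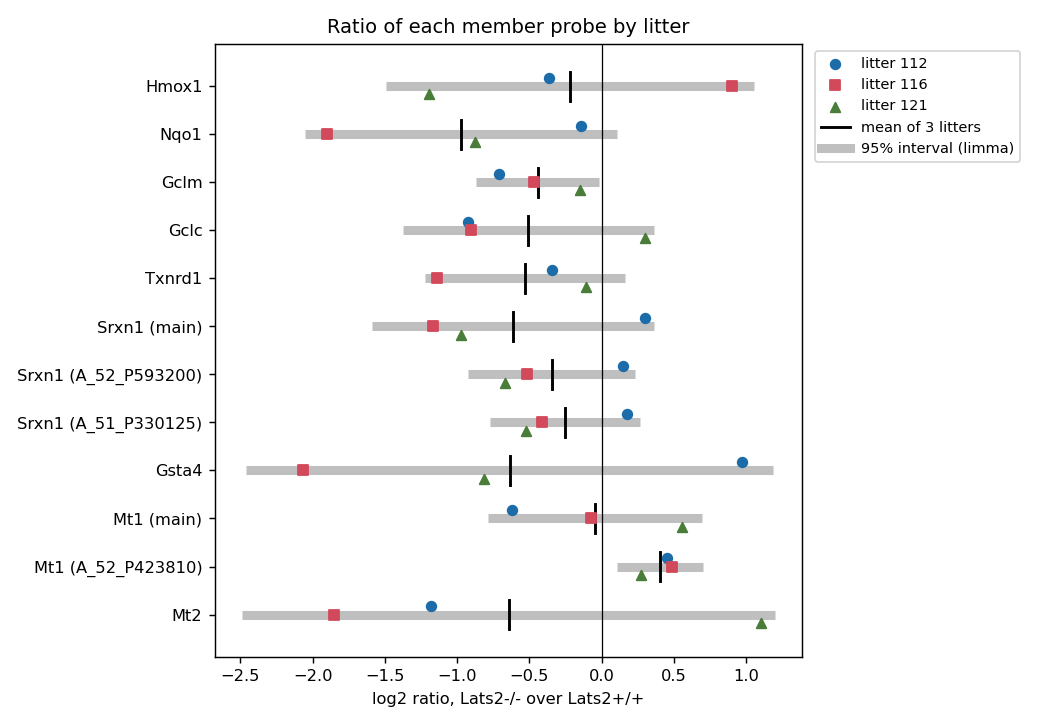
Log2 ratio of Lats2-/- over Lats2+/+ (x axis) for the 12 kept member probes (rows), with 1 point per litter, the mean as a black line and limma's 95% interval in grey. Hmox1, Gclc, Srxn1, Gsta4, Mt2 and the main Mt1 probe have litters on both sides of 0, and the intervals of Gclm and of the second Mt1 probe do not reach it.

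**Figure D2:**
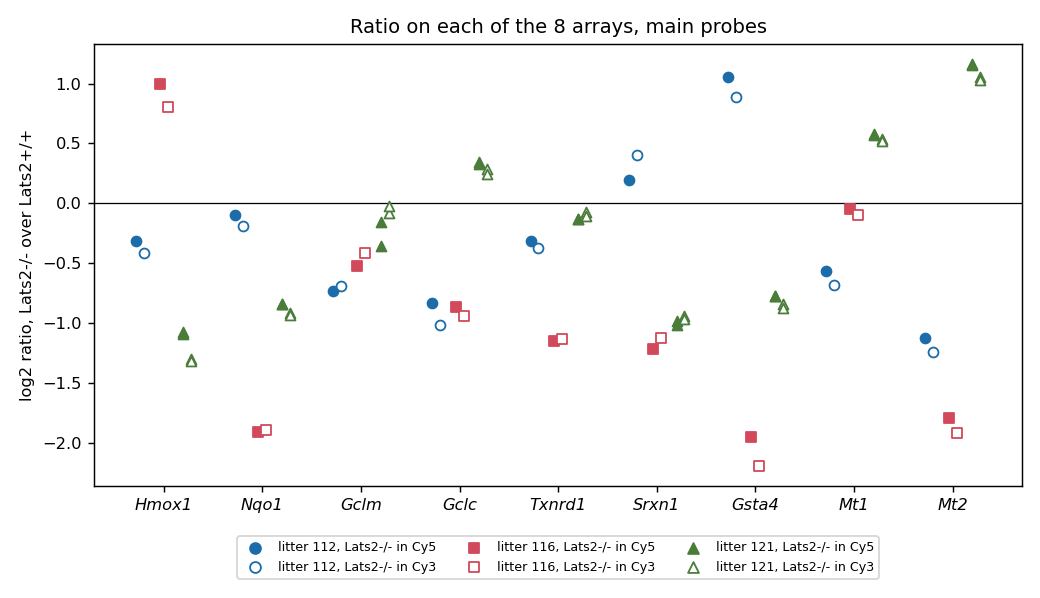
Log2 ratio on each of the 8 arrays (y axis) for the main probe of 9 member genes (x axis), by litter (symbol) and by the dye of the Lats2-/- extract (filled, Cy5; open, Cy3). Arrays of a litter lie close together, and litters do not overlap, except litters 112 and 116 for Gclc.

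Glutathione synthesis was represented by Gclc, Gclm and Slc7a11. Gclc and Gclm encode the catalytic and the modifier subunit of glutamate-cysteine ligase, which sets the rate of glutathione synthesis. The Gclm probe (mm8 chromosome 3, 122251278 to 122253913, plus strand) gave log2 signals of 9.08, 8.28 and 7.76 in the wild-type extracts of litters 112, 116 and 121 and of 8.37, 7.81 and 7.61 in the Lats2-/- extracts. Lats2-/- was the lower extract in each litter, but the signals of the genotypes overlapped across litters. The ratios were -0.71, -0.47 and -0.15, on average -0.44 ± 0.28 (SD over litters, n = 3; 1.36-fold lower; unadjusted p of 0.0443 and adjusted p of 0.711 by limma), and the mean was -0.59 without litter 121. The ratio of litter 121 was smaller than the range over its 4 arrays, 0.33.

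Gclc (mm8 chromosome 9, 77579173 to 77579232, plus strand) had wild-type signals of 11.49, 11.22 and 10.54 and Lats2-/- signals of 10.56, 10.32 and 10.84. In litters 112 and 116 the Lats2-/- extract was lower by nearly the same amount, with ratios of -0.92 and -0.90, and in litter 121 it was higher, with a ratio of 0.30. The mean was -0.51 ± 0.70 (SD over litters, n = 3; adjusted p of 0.761 by limma), and it was -0.30, -0.31 and -0.91 without litters 112, 116 and 121. The wild-type signal was lowest in the litter where the sign turned. In that litter the ratios of the 2 subunits differed in sign, which was not tested.

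Slc7a11 encodes the cystine transporter that supplies the cysteine for glutathione. Its 4 probes, on the minus strand of mm8 chromosome 3, were dim, with log2 signals between 5.87 and 7.01 in every extract. The brightest (A_51_P129502, 50468320 to 50468379) was well above background in 1 of 3 Lats2-/- and 1 of 3 wild-type extracts, and A_52_P368057 and A_52_P663446 were so in the wild-type extract of litter 116 alone, on 2 of 2 arrays. No fold is given, since the wild-type signal did not exceed the bound set for the Lats2-/- extract. Ratios of the 4 probes lay between -0.49 and 0.00 and were not tested. Slc3a2, whose protein pairs with the transporter, was well above background in all 6 extracts, and its ratios were -0.15, -0.06 and 0.27.

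Thioredoxin reduction is represented by Txnrd1, the cytosolic thioredoxin reductase, and Srxn1, which restores over-oxidised peroxiredoxins. For Txnrd1 (mm8 chromosome 10, 82327284 to 82327343, plus strand) the log2 signals were 13.71, 13.45 and 12.99 in wild type and 13.37, 12.31 and 12.88 in Lats2-/-. The Lats2-/- extract was the lower in each litter, most in litter 116. The ratios of -0.34, -1.14 and -0.11 averaged -0.53 ± 0.54 (SD over litters, n = 3; unadjusted p of 0.0992 and adjusted p of 0.727 by limma). The mean was -0.23 without litter 116 and -0.74 without litter 121.

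Srxn1 had 3 kept probes. The brightest (A_52_P297032, mm8 chromosome 2, 151802624 to 151802683, plus strand) had wild-type signals of 11.71, 12.02 and 10.91 and Lats2-/- signals of 12.01, 10.85 and 9.94. Lats2-/- was the higher extract in litter 112 and the lower in the other litters, with ratios of 0.30, -1.17 and -0.97, on average -0.61 ± 0.80 (SD over litters, n = 3; adjusted p of 0.754 by limma). The other probes, which overlap each other at 151800890 to 151800996, had the same signs with smaller sizes: 0.15, -0.52 and -0.67 for A_52_P593200, and 0.18, -0.42 and -0.52 for A_51_P330125. Without litter 121 the 3 means were -0.43, -0.18 and -0.12, and without litter 112 they were -1.07, -0.59 and -0.47. Without litter 116 the mean of the brightest probe was -0.34.

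Detoxifying enzymes among the members were Nqo1, which reduces quinones, and Gsta4, a glutathione transferase that conjugates lipid aldehydes. The Nqo1 probe (mm8 chromosome 8, 110277669 to 110277728, minus strand) gave 8.34, 10.59 and 7.85 in wild type and 8.20, 8.68 and 6.97 in Lats2-/-. The wild-type extract of litter 116 stood apart from the other 5. Ratios were -0.14, -1.90 and -0.88, on average -0.97 ± 0.88 (SD over litters, n = 3; 1.96-fold lower; unadjusted p of 0.0656 and adjusted p of 0.716 by limma), which was -1.02 without litter 121 and -0.51 without litter 116.

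Gsta4 was measured by a probe spotted 10 times per array (mm8 chromosome 9, 77984049 to 77985221, plus strand), with 1 outlier spot left out. Wild-type signals were 8.90, 10.33 and 7.91, and Lats2-/- signals were 9.88, 8.26 and 7.10. As for Nqo1, the wild-type extract of litter 116 was the highest, but in litter 112 the Lats2-/- extract was the higher one. The ratios of 0.97, -2.07 and -0.81 averaged -0.64 ± 1.53 (SD over litters, n = 3; adjusted p of 0.849 by limma). The mean was -1.44, 0.079 and -0.55 without litters 112, 116 and 121.

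Hmox1 encodes heme oxygenase 1, the inducible enzyme that opens the heme ring. Its probe (mm8 chromosome 8, 77996380 to 77996439, plus strand) gave 13.03, 11.02 and 12.30 in wild type and 12.66, 11.92 and 11.11 in Lats2-/-. Here the wild-type extract of litter 116 was the lowest of the 6, the reverse of its place for Nqo1 and Gsta4. The ratios ran to both sides, -0.37, 0.90 and -1.19, on average -0.22 ± 1.05 (SD over litters, n = 3; adjusted p of 0.937 by limma) with a 95% interval from -1.49 to 1.05. Without litters 112, 116 and 121 the mean was -0.15, -0.78 and 0.27. Hmox2, the constitutive isoform, had ratios of -0.13, -0.00 and -0.06.

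The metallothionein genes lie next to each other on mm8 chromosome 8, where the Mt2 probe (97062600 to 97062659, plus strand) and the main Mt1 probe (A_51_P294979, 97069240 to 97069299, plus strand, 10 spots per array) are 6.58 kb apart. Mt1 signals were 14.08, 15.12 and 12.98 in wild type and 13.46, 15.05 and 13.53 in Lats2-/-. Litter 116 had the highest Mt1 signal in both genotypes. The ratios were -0.62, -0.07 and 0.55, on average -0.05 ± 0.59 (SD over litters, n = 3; adjusted p of 0.980 by limma). The mean was 0.24 without litter 112 and -0.35 without litter 121.

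Mt2 signals were 12.08, 14.99 and 11.67 in wild type and 10.90, 13.14 and 12.77 in Lats2-/-. Litter 116 was again the highest in both genotypes, and the range over the wild-type extracts, 3.32, was the widest of the 9 main probes. Ratios were -1.18, -1.85 and 1.10, on average -0.64 ± 1.55 (SD over litters, n = 3; adjusted p of 0.849 by limma). Without litters 112, 116 and 121 the mean was -0.38, -0.040 and -1.52. In litters 112 and 121 the ratios of Mt1 and Mt2 had the same sign, negative and then positive, and in litter 116 Mt2 was lower by 1.85 while Mt1 hardly differed: the Mt1 ratio minus the Mt2 ratio was 0.56, 1.78 and -0.55. This difference was not tested, nor was cross-hybridisation between the 2 related transcripts.

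A second Mt1 probe (A_52_P423810, 97069073 to 97069132) did not follow the main one. It was dim, at 7.54, 7.95 and 7.87 in wild type and 7.99, 8.43 and 8.14 in Lats2-/-, and its range over the wild-type extracts was 0.41, where that of the main probe was 2.14. The Lats2-/- extract was the higher in each litter, and all 3 Lats2-/- signals lay above all 3 wild-type signals. The share of all kept probes that separate the genotypes in this way was not counted. Its ratios of 0.45, 0.48 and 0.27 averaged 0.40 ± 0.11 (SD over litters, n = 3; 1.32-fold higher; unadjusted p of 0.0205 and adjusted p of 0.711 by limma), and 0.47 without litter 121. The probes disagree on the sign for litters 112 and 116, and no direction is given for Mt1 as a gene.

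**Figure D3:**
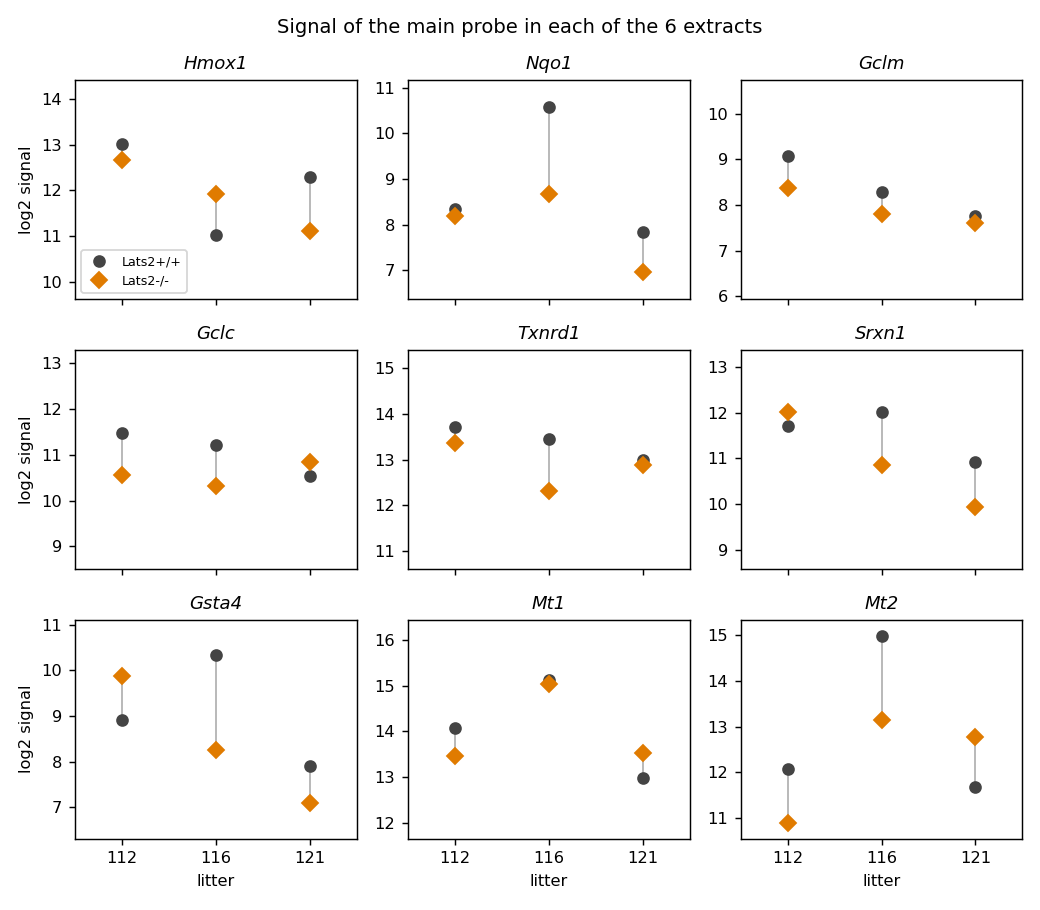
Log2 signal of the main probe (y axis, each panel spans the same 4.8 units) in the Lats2+/+ (circles) and Lats2-/- (diamonds) extracts of each litter (x axis), with a line joining the extracts of a litter. The wild-type extract of litter 116 is the highest for Nqo1, Srxn1, Gsta4, Mt1 and Mt2 and the lowest for Hmox1.

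Signals varied widely between the wild-type cultures themselves. The range of signals over the 3 wild-type extracts was larger than the size of the mean ratio for 12 of 12 member probes, and for 89.2% of all kept probes. Over the main probes that range had a median of 2.01, and over the 12 member probes 1.21, against 0.47 for all kept probes. Among wild-type extracts, litter 116 had the highest signal for 5 of 9 genes (Nqo1, Srxn1, Gsta4, Mt1 and Mt2) and litter 112 for the other 4. Litter 121 had the lowest for 8 of 9, all but Hmox1, against 38.5% of all kept probes. Among Lats2-/- extracts litter 121 was the lowest for 5 of 9 (Hmox1, Nqo1, Gclm, Srxn1 and Gsta4). For this count and for those of the highest wild-type signal, the share of all kept probes was not counted, so they describe the members only.

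Patterns nearest to 2 of the members were sought among 14790 other genes, by the root mean square distance of the 6 centred log2 signals. Nearest to Mt1 were Spn at 0.24, Emp2 at 0.27 and Neil3 at 0.28 log2 units, where the Mt1 signals themselves had a root mean square of 0.80 about their mean. Mt2 ranked 6219th by this measure, at 0.82. The distance weighs the size of the swings as well as their shape, so that a gene with flat signals would lie at 0.80. Mt2 had the wider range over the wild-type extracts, 3.32 against 2.14 for the main Mt1 probe, and its rank does not tell shape from size. Nearest to Hmox1, whose root mean square was 0.75, were Slc2a13 at 0.29, Npm3 at 0.29 and B230209C24Rik at 0.31. With 6 extracts and so many genes, these are descriptions.

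The regulators of the pathway had no common direction. Of 11 genes, 6 had a mean ratio above 0 and 5 below, the median was 0.15, and 0 passed an adjusted p under 0.05 in limma. Nfe2l2 itself gave log2 signals of 11.07, 12.87 and 11.27 in wild type and 11.63, 11.63 and 10.81 in Lats2-/-, so that the wild-type extract of litter 116 was again the highest. Its ratios were 0.55, -1.25 and -0.46, and the mean was -0.38 ± 0.90 (SD over litters, n = 3; adjusted p of 0.849 by limma). Without litters 112, 116 and 121 the mean was -0.85, 0.047 and -0.35, so that its sign rests on litter 116.

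Keap1, the brake on NRF2, was the 1 regulator with an unadjusted p under 0.05 (0.0236; adjusted p of 0.711 in limma), against 7.59% of genes on the array in either direction and 3.45% in this one. The count of regulators was 0, 2 and 0 without litters 112, 116 and 121, against 5.79%, 6.29% and 7.51% of genes. It was also 0 with the scanner software's processed signals, with the authors' value table and without the pairing of genotypes by litter. Its wild-type signals of 11.65, 12.00 and 11.39 were above the Lats2-/- signals of 11.37, 11.59 and 11.00 in each litter, though the groups overlapped. The ratios of -0.28, -0.41 and -0.39 (mean -0.36 ± 0.07, SD over litters, n = 3) did not pass the F-test of litter differences, with an adjusted p of 0.124 in limma, and the mean without litter 121 was -0.35. Bach1, the competing repressor, had ratios of 0.83, -0.07 and -0.14, and Mafg, a small MAF partner, 0.07, -0.65 and -0.17.

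Other targets of NRF2 went to both sides as well. Of 31 listed genes 30 were kept, 17 with a mean above 0 and 13 below, with a median of 0.05 where the members had -0.53. An unadjusted p under 0.05 was reached by 2 on the higher side, against 4.14% of genes on the array, and by 1 on the lower side. Gstm2, a glutathione transferase, had signals of 9.85, 11.57 and 9.92 in wild type and 10.78, 12.14 and 11.05 in Lats2-/-, with ratios of 0.93, 0.57 and 1.13, on average 0.88 ± 0.29 (SD over litters, n = 3; adjusted p of 0.711 by limma). Cross-hybridisation with other Gstm genes was not tested. Cbr1, a carbonyl reductase, was lowest in the wild-type extract of litter 112, at 8.25 against 10.40 or more in the other 5 extracts, and had ratios of 2.77, 0.61 and 1.10. Abcc4, an export pump for conjugates, gave -0.29, -0.67 and -0.87 by litter, on average -0.61 ± 0.29 (SD over litters, n = 3; adjusted p of 0.711 by limma). Each of the 3 kept 1 sign over the litters. Without litter 121 the means of Gstm2 and Abcc4 were 0.75 and -0.48. Without litter 116 the count of genes under 0.05 was 7, against 6.29% of genes on the array.

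Among the remaining glutathione and thioredoxin genes, 5 of 31 kept (32 listed) had an unadjusted p under 0.05, all higher in Lats2-/-, against 7.59% of genes on the array in both directions. They were Gstt1, Mgst1, Txnrd2, Prdx5 and Sesn1, and none passed the adjusted threshold. Without litter 112 the count was 3, against 5.79% of genes. Prdx5, a peroxiredoxin of mitochondria and peroxisomes, had wild-type signals of 11.26, 11.19 and 10.87 and Lats2-/- signals of 11.98, 11.65 and 11.71. These did not overlap, and the share of genes on the array without overlap was not counted. The mean ratio of Prdx5 was 0.68 ± 0.20 (SD over litters, n = 3; unadjusted p of 0.00635 and adjusted p of 0.711 by limma). Txnrd2, the mitochondrial thioredoxin reductase, had ratios of 0.46, 0.34 and 0.45, opposite in sign to those of Txnrd1 in each litter. Sesn1, a stress-induced sestrin, had 0.57, 0.35 and 0.48. Gstt1 and Mgst1, enzymes that conjugate glutathione, had means of 0.85 ± 0.60 and 0.99 ± 0.48 (SD over litters, n = 3). Without litter 121 the means of Prdx5, Gstt1 and Mgst1 were 0.59, 1.14 and 0.77, and without litter 116 that of Gstt1 was 0.53. Gstt1 and Mgst1 were each well above background in 2 of 3 wild-type extracts and in 3 of 3 Lats2-/- extracts. Txn1, the cytosolic thioredoxin, had ratios of -0.42, 0.26 and -0.14. Over the list 19 means lay above 0 and 12 below, with a median of 0.08.

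Superoxide, peroxide and heme enzymes gave 0 of 8 kept genes (9 listed) at an unadjusted p under 0.05 in limma, and 0 at an adjusted one. Without litters 112, 116 and 121 the unadjusted count was 1, 2 and 1, against 5.79%, 6.29% and 7.51% of genes. Of their means 6 were above 0, with a median of 0.23. Metal response genes gave 0 of 10 in limma, both adjusted and at an unadjusted p under 0.05, with 6 means above 0 and a median of 0.15. Mtf1, the factor that induces metallothioneins, had ratios of 0.13, -0.26 and 0.61, and Slc30a1, a zinc exporter that MTF1 also induces, 0.07, -0.05 and 0.43. Mt3 and Mt4, the metallothionein genes of other tissues, were dim, with ratios of 0.12, 0.37 and 0.04 and of 0.05, 0.07 and -0.35. None of these 4 had the size of the Mt2 ratios.

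Proliferation genes, which mark dividing cells, split by litter. Of 20 genes, 19 had a ratio below 0 in litter 112 and 20 in litter 116, with medians of -0.58 and -0.71, while 16 were above 0 in litter 121, with a median of 0.27. All 20 mean ratios were below 0, and 2 reached an unadjusted p under 0.05 (Ccnb2, on average -0.46 ± 0.10, and Mcm6, with -0.68 ± 0.12; SD over litters, n = 3; both with an adjusted p of 0.711 by limma), against 3.45% of genes lower and 7.59% in either direction. Without litter 121 the count was 13, against 7.51% in either direction, with means of -0.45 for Ccnb2 and -0.74 for Mcm6, and without litter 116 it was 1, against 6.29%. Gclc, Mt2 and the main Mt1 probe had the same signs as these medians in the 3 litters, and Hmox1, Nqo1, Gclm, Txnrd1, Srxn1 and Gsta4 did not. The part of culture growth, of the fibroblast markers and of the macrophage and neural markers in the member ratios was not tested.

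**Figure D4:**
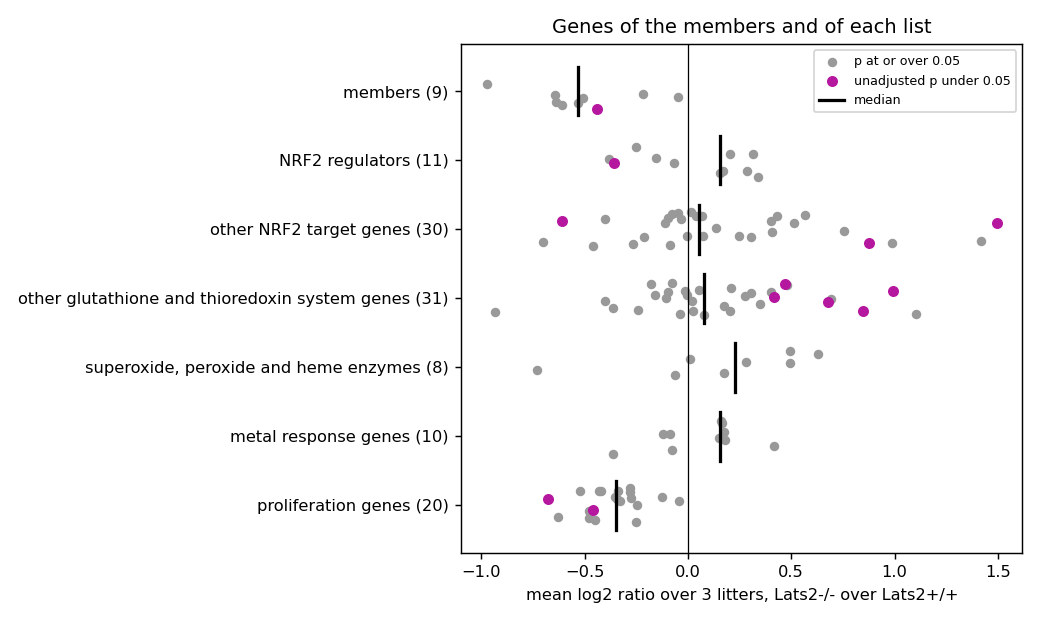
Mean log2 ratio over the 3 litters (x axis) for the main probe of each kept gene, 1 point per gene, in the members and in each list (number of kept genes in brackets), with the median as a line and genes with an unadjusted p under 0.05 in limma in purple. Points are spread vertically for legibility. The members and the proliferation genes have medians of -0.53 and -0.35, and the other lists lie between 0.05 and 0.23.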

How the data were processed

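Dual-colour arrays of the whole mouse genome (Agilent design 14868, coordinates in mm8) were hybridised by the authors with Lats2-/- and Lats2+/+ extracts of 3 litters, and each scan was read with Feature Extraction (10.7.3.1 is the version in the file headers, 10.5.1.1 that in the submitters' processing notes). The deposited scanner files give the mean and background intensity of each spot on a linear scale, without normalization. They also give processed intensity, corrected by the authors' software for background and dye, and its log10 ratio. The series' deposited value table holds the same log10 ratios, turned to Lats2-/- over Lats2+/+ on each array. Both were used as alternatives only.

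Intensities were corrected with normexp (offset 50) and normalized by loess within arrays in limma 3.58.1 (R 4.3.3), after 860 outlier spots were left out and with 0 gene spots saturated. Dye-swapped arrays of a litter were averaged, so that the litter is the replicate (n = 3), paired within the array. Probes well above background in at least 2 of 3 extracts of either genotype were kept. Signals per extract were taken after Aquantile. The 3 ratios were tested against 0 with limma's moderated test, two-sided, with Benjamini-Hochberg adjustment over 22642 probes, and litters were compared by limma's F-test over arrays with a dye term. Precision is limited by the number of litters and arrays (2, 2 and 4). The p-values measure the spread between 3 litters of 1 culture per genotype. The scripts were tested on simulated data.

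The members and lists were chosen with earlier results of these data known. Named are all members, the list genes with an unadjusted p under 0.05, a few regulators and relatives picked by role, and the 3 genes nearest in pattern to Mt1 and to Hmox1. Other genes named in passing were chosen after their values were seen. Alternatives covered background correction, normalization, filters, single litters, the pairing, random blocks, dye and test. Probe coordinates are those of the scanner files, and no annotation of mm8 was used here.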

Additional observations from a re-analysis of the deposited data

How the results depend on the processing

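For the 12 member probes and 15 alternatives, 176 of 180 mean ratios kept their sign and their side of the adjusted threshold, and none passed it. The 4 that turned sign were the main Mt1 probe without litter 112 (0.24) and with slide as a random block (0.10), Gsta4 without litter 116 (0.079) and Hmox1 without litter 121 (0.27). Leaving out 1 litter, these means ran from -0.35 to 0.24 for Mt1, from -1.44 to 0.079 for Gsta4 and from -0.78 to 0.27 for Hmox1. The number of member probes with an unadjusted p under 0.05 was 2. It was 0 without the replicate block, that is with the pairing of genotypes in a litter dropped, against 2.5% of all kept probes, and 1 (the second Mt1 probe) in the methods' t-test, against 5.95%. It was 6 with litter as a random block, 4 with slide as one and 5 with a dye term and litter as one, against 13.2%, 17.8% and 12.6% of all kept probes, fits in which repeat arrays of an extract count singly. Leaving out 1 litter gave 0 to 4: 4 without litter 112 (Nqo1, Gsta4 and 2 of the Srxn1 probes), 0 without litter 116, and 4 without litter 121 (Gclm, Gclc, Mt2 and the second Mt1 probe). At 2-fold with an unadjusted p under 0.05 the count was 0, and it was 1 (Nqo1) with a normexp offset of 16, with the scanner software's processed signals and with the value table (1.35%, 2.43% and 2.41% of all kept probes); leaving out 1 litter gave 0 to 3. The count past the adjusted threshold stayed at 0 in each of these fits, although 341, 717 and 203 probes of the array passed with litter, slide, and dye and litter in the random-block fits. Without the dye term the F-test over arrays called 11 member probes instead of 12. Of the list genes with an unadjusted p under 0.05, the other NRF2 targets numbered 3, the other glutathione and thioredoxin genes 5 and the proliferation genes 2. Without the pairing these counts were 0, 1 and 0, against 2.79% of genes, and in the methods' t-test 1, 3 and 2, against 5.82%. With litter as a random block they were 9, 9 and 6, with slide 9, 10 and 4, and with dye and litter 7, 9 and 5, against 15%, 19.1% and 14.7% of genes. In the same 3 fits the superoxide, peroxide and heme enzymes had 3, 1 and 2 such genes and the metal response genes 0, 1 and 1, where both lists had 0.

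No Slc7a11 probe was well above background in enough extracts to be tested. The mean of Nqo1 was -0.97 with the offset of 50, -1.10 with the offset of 16 and -1.33 with the processed signals, which also differ in background and dye correction, and the cause was not tested. With the processed signals the dimmer Srxn1 probes moved from -0.35 to -0.60 (A_52_P593200) and from -0.25 to -0.57 (A_51_P330125), and with the value table likewise to -0.60 and -0.57. The random block for slide moved the mean of Mt2 from -0.64 to -0.21, that of Hmox1 from -0.22 to -0.46 and that of Gclc from -0.51 to -0.31, and without loess that of the main Mt1 probe from -0.05 to -0.11. The cause of these moves was not tested either. No other mean moved by over 1.5 times, apart from those without 1 litter and those that turned sign.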
